A study of Bos taurus with 16 samples.

Results

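The subject here is the organ contrast of a calf, its expression in muscle minus its expression in liver, and the change of that contrast with the way the embryo was produced. For every gene the difference between in vitro-produced (IVP) calves and calves from multiple ovulation and embryo transfer (MOET) was taken in muscle, the same difference was taken in liver, and the second was subtracted from the first. This tissue-by-origin interaction used all 16 RNA-sequencing libraries of the series, 8 of liver and 8 of semitendinosus muscle, with both libraries of a calf as a pair. A positive interaction means that expression moved towards muscle in the IVP calves, and a negative one that it moved towards liver.

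The IVP group held 4 Holstein bull calves (3208, 3209, 5833 and 5841) from oocytes matured, fertilized and cultured in the laboratory. The MOET group held 4 Holstein bull calves (3213, 3217, 3218 and 5932) from embryos that developed in a superovulated cow and were flushed for transfer. The labels name no transgene or treatment, and all calves were raised in 1 herd and euthanized at 98 to 104 days of age, apart from MOET calf 3213 at 144 days. All IVP calves had the same dam, which was also the dam of 3217 and 3218, and 3208, 3209, 3217 and 3218 had the same sire as well. Embryo origin and parents can therefore be separated only among those 4 calves, and 1 breed and 1 sex were sampled.

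The deposited counts per library summed to 22758137 to 24667728 in liver and 23677247 to 25626474 in muscle. In each organ the library of calf 3213 lay nearer to the mean of the other MOET calves than counting noise allows, with a median deviation of 0.0219 in liver and 0.0137 in muscle on the log2 scale against a noise of 0.0443 and 0.0467. The other 7 calves deviated by 0.0992 to 0.372 in liver and 0.121 to 0.189 in muscle. Means ± SD therefore cover 4 IVP and 3 MOET calves. The tests in all 16 libraries do count calf 3213 as a replicate, so the counts of called genes are also given without it, as are the FDR values of the genes that lost their call. The liver of IVP calf 5841 had the deviation of 0.372, and its organ contrast correlated with those of the MOET calves at r = 0.915 to 0.928 across genes, against 0.948 to 0.967 with the other IVP calves. Of the fixed markers with a name, APOA1, APOB and TTR of hepatocytes summed to 5659 to 7672 CPM in IVP livers and 4113 to 4801 CPM in MOET livers. In muscle they summed to 3.95 to 46.8 CPM in the IVP group, above the 1.22 to 3.20 CPM of the MOET group in every calf, and their median contrast was -10.57, -7.28, -9.89 and -11.22 in the IVP calves against -12.08, -11.71, -12.38 and -12.63 in the MOET calves, in the order of calves given further on, with IVP calf 3209 apart from the rest. The part of these liver transcripts in muscle in the results was not tested. The 6 named markers of muscle fibres, among them ACTA1 and RYR1, summed to 142601 to 221953 CPM in muscle and 2.99 to 5.83 CPM in liver, so both organs carried their own markers.

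Liver and skeletal muscle share the machinery that every cell needs, such as ribosomes, proteasomes and the respiratory chain, and differ in their special programmes. The liver makes plasma proteins, bile acids, glucose and fat for other organs, and muscle contracts, stores glycogen and takes up glucose under insulin. In a whole organ, fewer cells of a type and less RNA per cell cannot be told apart, and RNA from a minor cell type adds to the total of its organ.

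Of 15237 genes tested, 3491 (22.9%) had an interaction at a false discovery rate (FDR) under 0.05. The contrast moved towards muscle in the IVP calves for 1696 genes (11.1%) and towards liver for 1795 (11.8%), and the interaction of 1567 called genes exceeded 1 on the log2 scale. Scaling by library totals alone, which moved the median interaction of all genes from 0.03 to 0.26, called 2252 genes higher and 868 lower. Without calf 3213, 1151 of 15377 genes were called (7.49%), 661 higher and 490 lower. All but 7 of these were among the 3491. The 1144 shared genes had the same direction in both fits, which share 14 libraries, so this is no independent check. Leaving out MOET calf 3217, 3218 or 5932 in its place gave 1019, 2156 and 1564 genes, and leaving out IVP calf 5841 gave 3244 (21.1%). The contrasts of the 4 IVP calves lay wholly above or wholly below those of the 4 MOET calves for 3183 of the called genes, against 4656 of all genes tested (30.6%). The call and the overlap rest on the same contrasts, so the count among called genes follows in large part from the call. Calf 3213 lay near the mean of the other MOET calves, so it adds little to either count.

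Gene symbols were at hand for 3776 of the tested genes, taken from lists that the study had selected partly on these libraries. Among them 1718 were called (45.5%), 821 higher (21.7%) and 897 lower (23.8%), and 715 without calf 3213 (18.9%) or 1654 without calf 5841 (43.8%). Counts within a gene list are to be read against these shares. Only part of each list had a symbol. It was 59 of 80 genes for the cytosolic ribosome, 31 of 79 for the mitochondrial ribosome and 36 of 79 for the respiratory chain. It was 12 of 31 for the proteasome and 20 of 42 for insulin and mTOR signalling. The direction and number of calls in a list therefore hold for its named members only, and not for the whole pathway. The median interaction was -0.02 over genes with a symbol.

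**Figure D1:**
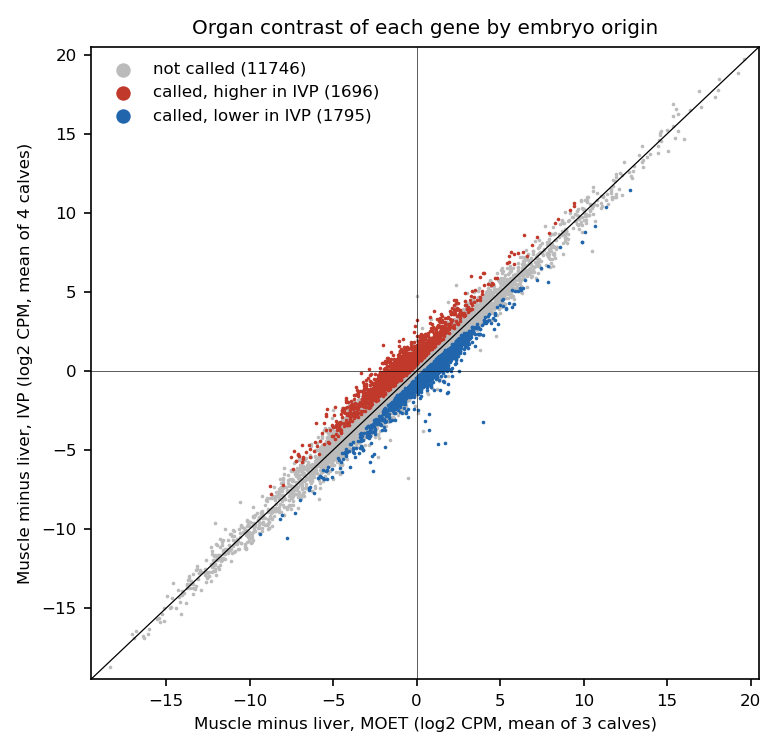
Each point is 1 of the 15237 genes tested, placed by the mean muscle minus liver difference of log2 CPM in 3 MOET calves (x axis, without 3213) and in 4 IVP calves (y axis), with equality on the diagonal. The 1696 genes called higher in IVP calves lie above the diagonal and the 1795 called lower lie below it, most of them at contrasts near 0 in both groups.

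In the paragraphs that follow, 4 contrasts of IVP calves are given in the order 3208, 3209, 5833 and 5841, and 4 contrasts of MOET calves in the order 3217, 3218, 5932 and 3213. Each is a difference of log2 CPM, muscle minus liver, with a prior count of 2. The genes named first are the 12 with the largest interaction in each direction that met fixed limits of level and had no overlap between the groups, so that the lack of overlap in them follows from the choice.

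TFRC, GPAM, ABCA1 and ATF3 were among the genes that moved most towards muscle in the IVP calves. TFRC, the receptor that takes up transferrin-bound iron, had contrasts of 1.41, 0.96, 1.54 and 3.66 in the IVP calves against -0.74, -1.36, -1.05 and -0.87 in the MOET calves. It was thus higher in muscle than in liver in every IVP calf and higher in liver in every MOET calf. The liver level was 11.5 ± 6.62 CPM in IVP against 26.1 ± 2.49 CPM in MOET calves, the muscle level 41.6 ± 19.6 and 12.8 ± 3.10 CPM, and the interaction 2.85 (SE 0.47, FDR = 0.00831, and 0.0272 without 3213). GPAM, which starts the synthesis of triglycerides from glycerol phosphate, had contrasts of -1.09, -0.89, 0.70 and 0.41 in IVP calves against -2.75, -2.90, -2.54 and -2.66 in MOET calves. Its interaction was 2.52 (SE 0.37, FDR = 0.00688, and 0.0239 without 3213), and the MOET calves formed a narrow group far below the IVP calves.

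ABCA1, which exports cholesterol from cells, was expressed mainly in liver in all calves. The liver held 17.5, 11.6, 9.40 and 6.24 CPM in the IVP calves against 43.3, 25.4, 36.5 and 31.7 CPM in the MOET calves, while muscle stayed at 0.542 to 2.52 CPM. The contrasts did not overlap, at -3.98, -2.73, -1.87 and -2.26 in IVP and -5.18, -5.36, -5.73 and -5.33 in MOET calves, with an interaction of 2.81 (SE 0.42, FDR = 0.00688, and 0.0239 without 3213). PROX1, a homeobox factor of hepatocytes and lymphatic vessels, had contrasts of -3.58, -3.33, -1.94 and -2.44 in IVP and -5.60, -5.21, -5.45 and -5.51 in MOET calves and an interaction of 2.83 (SE 0.39, FDR = 0.00650). AHR, the receptor for aromatic hydrocarbons, showed the same order with -3.30, -2.60, -1.98 and -1.3 against -5.07, -5.03, -4.49 and -4.81 and an interaction of 2.60 (SE 0.38, FDR = 0.00682). SLC38A4, an amino acid transporter of the liver, reached 2.41 (SE 0.60, FDR = 0.0194, and 0.0395 without 3213) with contrasts of -5.87, -5.98, -5.60 and -4.21 in IVP and -8.51, -6.81, -7.30 and -10.36 in MOET calves. All of these genes remained liver-high in each calf, and their contrast was narrower in the IVP group.

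ATF3, a transcription factor induced by stress, had contrasts of 2.97, 3.58, 3.89 and 4.70 in the IVP calves against 0.89, 0.78, 1.38 and 0.99 in the MOET calves. Its liver level was 8.98 ± 0.940 and 8.78 ± 1.94 CPM, and its muscle level was 135 ± 66.7 CPM in IVP against 18.6 ± 8.29 CPM in MOET calves. The interaction was 2.77 (SE 0.31, FDR = 0.00421, and 0.0205 without 3213). PODXL, a sialomucin of endothelial cells and podocytes, had contrasts of 1.44, 2.66, 2.69 and 4.61 in IVP calves and -0.06, -0.04, -0.18 and 0.28 in MOET calves, where both organs held about as much. Its interaction was 2.71 (SE 0.48, FDR = 0.00975). The remaining genes of this direction were KCTD12, a partner of GABA-B receptors, at 2.56 (SE 0.65, FDR = 0.0212), ZKSCAN1, a zinc finger factor, at 2.43 (SE 0.40, FDR = 0.00831), and LOC100139916 at 3.11 (SE 0.70, FDR = 0.0152). LOC100139916 was higher in IVP than in MOET calves in both organs, at 8.07 against 1.47 CPM in liver and 3.80 against 0.0708 CPM in muscle. The MOET muscles held 0 to 4 counts of it, so its fitted size depends on the prior count. AKAP6, which anchors protein kinase A in muscle, rested on liver counts of 0 to 1 in IVP and 1 to 6 in MOET calves, so that its fitted 2.43 (SE 0.61, FDR = 0.0205, and 0.0538 without 3213) depends on the prior count.

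**Figure D2:**
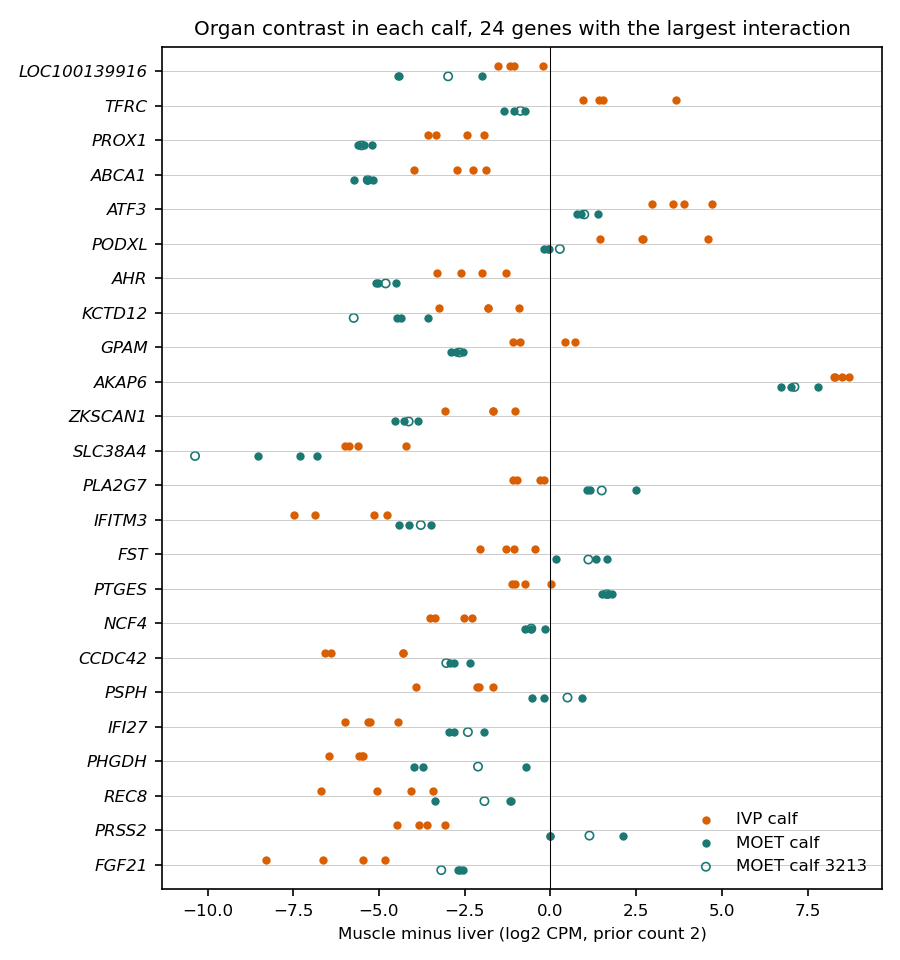
Muscle minus liver difference of log2 CPM (prior count 2) in each of 8 calves for the 24 named genes with the largest interaction, 12 in each direction. Filled points are 4 IVP and 3 MOET calves and open points MOET calf 3213. In TFRC the IVP calves lie between 0.96 and 3.66 and the MOET calves between -1.36 and -0.74, and the rule that chose the genes kept only those without overlap.

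The genes that moved most towards liver in the IVP calves included a pair of enzymes of one pathway. PHGDH, the first enzyme of serine synthesis, had contrasts of -5.60, -5.49, -5.46 and -6.44 in the IVP calves against -3.70, -3.99, -0.72 and -2.11 in the MOET calves. Muscle held 2.23, 2.93, 3.10 and 2.07 CPM in the IVP calves against 6.37, 6.07, 58.9 and 21.5 CPM in the MOET calves, where 5932 stood far above the others. The 21.5 CPM of calf 3213 lay near the mean of the other MOET calves, 23.8 ± 30.4 CPM. Its liver level was 144 ± 31.5 CPM in IVP against 93.0 ± 7.69 CPM in MOET calves, and the interaction was -3.20 (SE 0.65, FDR = 0.0121, and 0.0395 without 3213). PSPH, the last enzyme of the same pathway, had contrasts of -2.14, -2.07, -1.67 and -3.92 and -0.18, -0.54, 0.92 and 0.50, again with 5932 as the highest, and an interaction of -2.74 (SE 0.46, FDR = 0.00852, and 0.0298 without 3213). Among the calves of the same dam and sire, which leave out 5932, the interactions were smaller, at -1.72 for PHGDH and -1.76 for PSPH. In both genes all IVP calves lay below all MOET calves.

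IFI27, IFI6 and ISG15, which interferon induces, moved in the same direction. IFI27 held 399, 211, 384 and 663 CPM in the livers of IVP calves and 69.3, 83.3, 44.7 and 61.0 CPM in those of MOET calves, and 9.95 ± 0.341 and 11.8 ± 6.19 CPM in muscle. Its contrasts were -5.32, -4.45, -5.25 and -5.99 against -1.93, -2.82, -2.96 and -2.41, and its interaction was -2.74 (SE 0.32, FDR = 0.00421, and 0.0205 without 3213). IFI6 reached -1.62 (SE 0.26, FDR = 0.00821, and 0.0283 without 3213) and ISG15, a ubiquitin-like modifier, -1.74 (SE 0.33, FDR = 0.0112, and 0.0378 without 3213), each with no overlap between the groups. These 3 of the 7 tested genes of the interferon list were called lower, and IFI44 at -0.27 (FDR = 0.478), HERC6 at 0.09 (FDR = 0.822), STAT2 at 0.70 (FDR = 0.178) and OAS2 at 0.96 (FDR = 0.319) were not called. IFITM3, a membrane protein that hinders virus entry and that belongs to a family of similar copies, was called at -2.19 (SE 0.68, FDR = 0.0396, and 0.0930 without 3213).

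FST encodes follistatin, which binds activins and myostatin. Its contrasts were -1.07, -1.3, -0.44 and -2.06 in the IVP calves against 1.34, 1.65, 0.15 and 1.11 in the MOET calves, so it was liver-high in each IVP calf and muscle-high in each MOET calf. The liver held 13.4 ± 8.42 and 5.82 ± 2.76 CPM and muscle 5.07 ± 0.723 and 11.3 ± 1.21 CPM in IVP and MOET calves, and the interaction was -2.31 (SE 0.38, FDR = 0.00831, and 0.0277 without 3213). PTGES, a prostaglandin E synthase, had contrasts of -1.11, 0.02, -0.73 and -1.03 against 1.68, 1.51, 1.79 and 1.65 and an interaction of -2.40 (SE 0.26, FDR = 0.00421, and 0.0205 without 3213). PLA2G7, which breaks down platelet-activating factor, gave -0.19, -0.29, -0.96 and -1.10 against 1.14, 2.51, 1.07 and 1.5, with an interaction of -2.19 (SE 0.34, FDR = 0.00697, and 0.0272 without 3213). NCF4, a subunit of the NADPH oxidase of phagocytes, was more liver-high in the IVP calves, at -3.50, -2.30, -2.52 and -3.36 against -0.74, -0.58, -0.16 and -0.56, with -2.47 (SE 0.31, FDR = 0.00495, and 0.0214 without 3213). CCDC42, a coiled-coil protein, followed at -2.56 (SE 0.75, FDR = 0.0330, and 0.0641 without 3213).

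FGF21, a hormone of the liver that rises in fasting, was close to absent from muscle, with no count in the IVP calves and 0 to 3 counts in the MOET calves. The liver held 3.48, 7.81, 2.20 and 24.9 CPM in the IVP calves against 0.787, 0.708, 1.29 and 0.648 CPM in the MOET calves. All IVP livers exceeded all MOET livers, with 5841 far above the rest, and the fitted interaction of -7.26 (SE 1.26, FDR = 0.0119, and 0.0283 without 3213) depends on the prior count, since muscle was at the floor of 3 counts in both groups. REC8, a cohesin subunit of meiosis, was near the limit of detection in muscle, at 1 to 4 counts in the IVP group against 0 to 5 in the MOET group. The liver held 2.11, 1.96, 7.02 and 27.2 CPM in IVP against 0.688, 0.741, 0.628 and 0.432 CPM in MOET livers. Its interaction was -4.02 (SE 0.91, FDR = 0.0154). PRSS2, a trypsinogen of the exocrine pancreas, had 0 to 1 counts in the livers and 0 to 5 in the muscles of the MOET calves. In the IVP calves it held 233, 333, 314 and 476 CPM in liver and 27.7, 23.1, 25.9 and 21.2 CPM in muscle, so it was high in both organs, and its contrast in the MOET calves could not be read. It was the only one of the 10 exocrine pancreas markers with a symbol, trypsinogen genes have similar copies, and the fitted value of -6.88 (SE 1.37, FDR = 0.0133) is no fold change.

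Of the genes without a symbol, ENSBTAG00000009836 had contrasts of -3.89, -5.14, -2.14 and -7.04 in the IVP calves against 0.66, 1.27, 3.13 and 1.74 in the MOET calves, with an interaction of -6.88 (SE 0.77, FDR = 0.00421). Muscle held 0 to 9 counts of it in the IVP calves against 118 to 231 in the MOET calves, so the fitted size depends on the prior count. Its liver levels overlapped between the groups. ENSBTAG00000003222 reached -2.92 (SE 0.59, FDR = 0.0120). Its muscle level was 9.24, 11.5, 71.3 and 28.7 CPM in the MOET calves, with 5932 far above the others. The interaction was -1.25 in the calves of the same dam and sire and -5.05 in 5833, 5841 and 5932. In the other direction ENSBTAG00000049220 had 3.22 (SE 0.48, FDR = 0.00688) and ENSBTAG00000014855 2.82 (SE 0.57, FDR = 0.0119).

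Some genes changed the organ in which they were higher. A total of 204 called genes were liver-high in all 4 MOET calves and muscle-high in all 4 IVP calves, and 123 of them were also called without calf 3213. The reverse held for 139 genes, 64 of them also called without 3213. TFRC, IRS1 and ITGAV were of the first kind, and FST, PLA2G7, U2AF1 and SNRNP70 of the second.

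**Figure D3:**
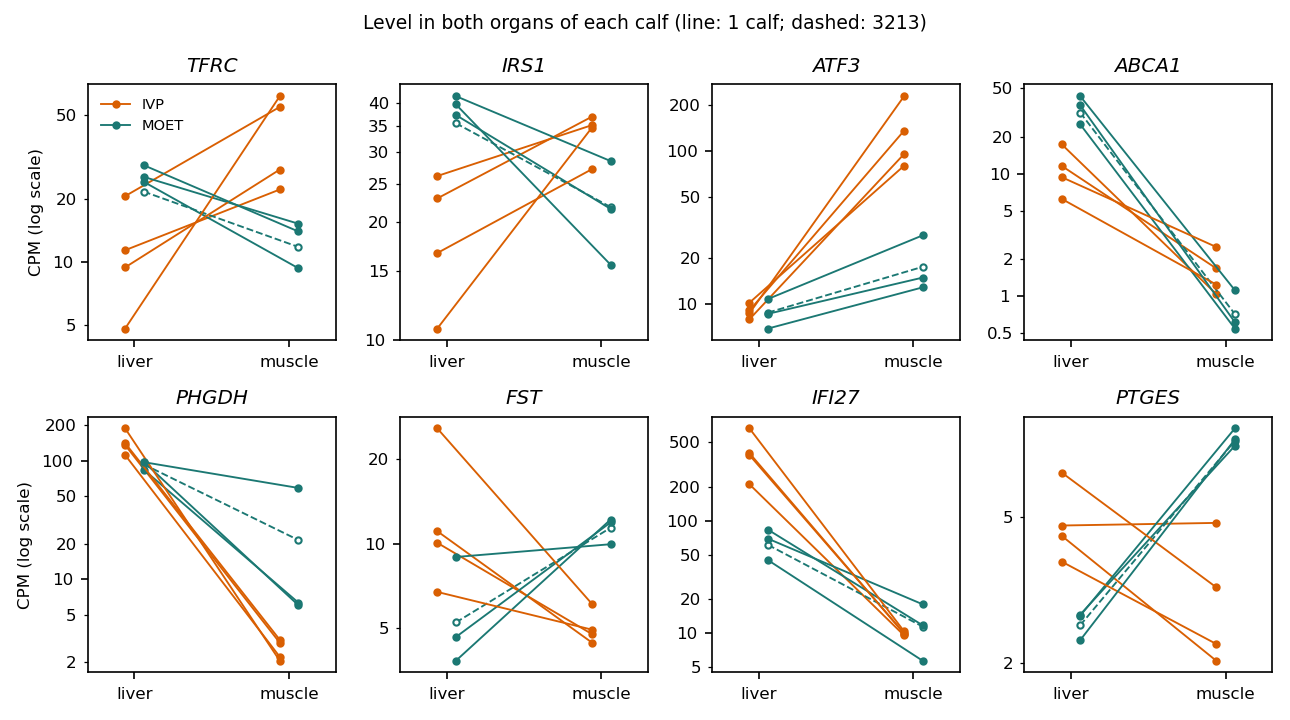
CPM (log scale) in liver and muscle for 8 named genes, with 1 line per calf that joins its organs and a dashed line for MOET calf 3213. The lines of TFRC and IRS1 rise in the IVP calves and fall in the MOET calves, those of FST do the reverse, and in ATF3 the origins part only in muscle, at 80.3 to 229 CPM in the IVP group and 12.9 to 28.1 CPM in the MOET group.

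The named genes of protein synthesis and breakdown moved mostly towards liver in the IVP calves. All 59 tested proteins of the cytosolic ribosome, out of 80 in the list, were called lower. Their median interaction was -1.13, with a range of -1.51 to -0.73. The median contrast of the ribosomal genes was 0.56, 0.07, 0.01 and -0.94 in the IVP calves against 0.94, 1.01, 1.16 and 1.12 in the MOET calves, so every IVP calf lay below every MOET calf and 5841 lay lowest. Without calf 3213, 11 of the 59 were called, a share near the 18.9% of all genes with a symbol. In that edgeR fit all 59 had an unadjusted p under 0.05, as did 4620 of the 15377 genes tested. Without 5841 all 59 were called, against 43.8% of genes with a symbol. Their median IVP minus MOET difference was 0.91 in liver and -0.29 in muscle on the log2 scale. RPL13A reached -1.18 (SE 0.25, FDR = 0.0129, and 0.0430 without 3213), RPSA -1.04 (SE 0.23, FDR = 0.0141) and RPL29 -1.34 (SE 0.30, FDR = 0.0141). Ribosomal proteins have many processed copies in the genome that can share reads, and the split of such reads was not examined. The ribosomal genes were also short, with a median span of 3.45 kb against 27.8 kb over genes with a symbol, and the interaction moved with gene span, as described further on.

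Of 31 mitochondrial ribosomal proteins tested, 24 were called lower and none higher, 13 without calf 3213, and all 31 had a negative interaction with a median of -0.80. MRPL41 had contrasts of 0.41, 0.09, 0.21 and -0.97 in IVP and 1.82, 1.28, 1.56 and 1.64 in MOET calves and an interaction of -1.64 (SE 0.27, FDR = 0.00835, and 0.0285 without 3213). MRPL54 reached -1.04 (SE 0.18, FDR = 0.00970), MRPS24 -0.90 (SE 0.16, FDR = 0.010) and MRPL23 -1.74 (SE 0.31, FDR = 0.010). The proteasome, which degrades ubiquitin-tagged proteins, followed, with 11 of 12 subunits called lower, none higher and a median of -0.90, and 4 called without calf 3213. The median span was 7.05 kb for the mitochondrial ribosomal genes and 7.92 kb for the proteasome genes. PSMB2 had an interaction of -0.89 (SE 0.19, FDR = 0.0129), PSMB6 -0.91 (SE 0.19, FDR = 0.0129), PSMB3 -0.96 (SE 0.22, FDR = 0.0152) and PSMA4 -1.12 (SE 0.26, FDR = 0.0173).

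Translation factors were less uniform. Of 22 tested, 10 were called lower and 2 higher. Without calf 3213, 2 were called, a smaller share than the 18.9% of all genes with a symbol. EIF2S2, a subunit of the factor that brings the initiator tRNA, reached -1.55 (SE 0.35, FDR = 0.0148, and 0.0431 without 3213), and EIF1AX -0.99 (SE 0.24, FDR = 0.0193, and 0.0546 without 3213). All 12 tested subunits of eIF3, the scaffold of the initiation complex, had negative values between -1.05 and -0.16, and 5 were called lower, EIF3F, EIF3G, EIF3I, EIF3K and EIF3M, with only 1 of the 12 called without calf 3213. EIF3G had contrasts of 1.05, 0.68, 0.46 and -0.14 against 1.55, 1.53, 1.56 and 1.60 and an interaction of -1.05 (SE 0.22, FDR = 0.0132), and EIF3F reached -0.88 (SE 0.21, FDR = 0.0187, and 0.0558 without 3213). The scaffold factors EIF4G1 at 0.61 (FDR = 0.0247, and 0.0781 without 3213) and EIF4G2 at 0.68 (FDR = 0.0448, and 0.102 without 3213) were called in the opposite direction.

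Among 19 spliceosome genes, 11 were called lower and 1 higher, and 6 were called without calf 3213. U2AF1, which recognizes the 3′ splice site, had contrasts of -0.12, -0.26, -0.48 and -1.06 in the IVP calves against 0.80, 0.39, 0.95 and 0.77 in the MOET calves, with an interaction of -1.21 (SE 0.21, FDR = 0.00950, and 0.0345 without 3213). SNRNP70 of the U1 particle reached -1.14 (SE 0.21, FDR = 0.0104), SNRPE -1.03 (SE 0.18, FDR = 0.00950) and LSM6 -0.99 (SE 0.19, FDR = 0.0111). AQR was called higher at 0.63 (FDR = 0.0252, and 0.0801 without 3213), while the large core proteins PRPF8 at 0.33 (FDR = 0.135) and SNRNP200 at 0.25 (FDR = 0.20) were not called.

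**Figure D4:**
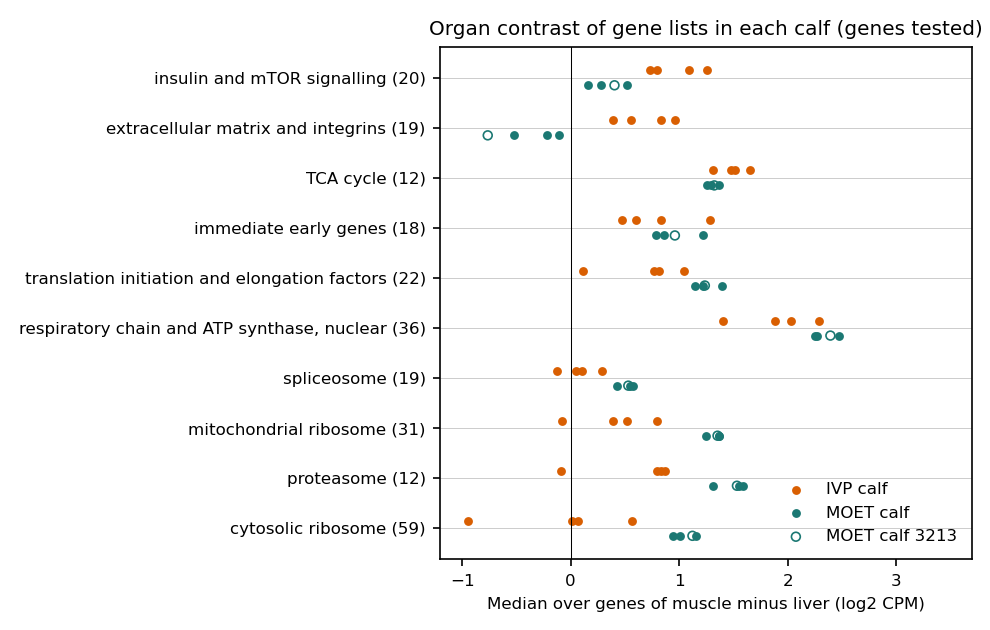
Median over the tested genes of a list (number in parentheses) of the muscle minus liver difference of log2 CPM in each calf, for 10 lists with at least 10 tested genes and none at the floor of counts. For the cytosolic ribosome the IVP calves lie at -0.94 to 0.56 and the MOET calves at 0.94 to 1.16, and for extracellular matrix and integrins the order of the groups is the reverse, at 0.39 to 0.96 and -0.76 to -0.11.

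Nuclear genes of the respiratory chain had median contrasts of 2.29, 1.89, 2.03 and 1.40 in the IVP calves against 2.47, 2.26, 2.27 and 2.39 in the MOET calves. Of 36 tested, 13 were called lower and none higher, with a median interaction of -0.59. None of the 36 was called by edgeR without calf 3213, where 19 had an unadjusted p under 0.05 and the lowest FDR was 0.0526. NDUFS6, NDUFB7, NDUFC2 and NDUFB11, subunits of complex I, had interactions of -0.92 (SE 0.22, FDR = 0.0176, and 0.0526 without 3213), -1.13 (SE 0.28, FDR = 0.0202, and 0.0558 without 3213), -0.64 (SE 0.16, FDR = 0.0204, and 0.0664 without 3213) and -0.82 (SE 0.21, FDR = 0.0212, and 0.0617 without 3213). The large ATP synthase subunits ATP5F1A at 0.37 (FDR = 0.130) and ATP5F1B at 0.15 (FDR = 0.541) were not called.

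Among 12 genes of the citrate cycle and the enzymes around it, 3 were called higher and 1 lower. PDHA1, of pyruvate dehydrogenase, had contrasts of 2.57, 2.64, 2.40 and 3.30 in the IVP calves against 1.75, 1.90, 1.56 and 1.80 in the MOET calves and an interaction of 0.97 (SE 0.20, FDR = 0.0122, and 0.0407 without 3213). DLD, a subunit shared by several dehydrogenases, reached 0.80 (SE 0.16, FDR = 0.0120, and 0.0429 without 3213), and ACLY, which makes acetyl-CoA for fat synthesis, 0.95 (SE 0.23, FDR = 0.0182, and 0.0505 without 3213). IDH3G was called lower at -0.47 (SE 0.15, FDR = 0.0489, and 0.141 without 3213).

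Of 7 genes of fatty acid oxidation, 3 were called higher and none lower. ACADM, which oxidizes medium-chain fatty acids in mitochondria, had contrasts of -0.62, -0.94, -0.80 and -0.27 against -1.89, -1.73, -1.86 and -1.82 and an interaction of 1.17 (SE 0.17, FDR = 0.00676, and 0.0272 without 3213). The peroxisomal enzyme EHHADH had contrasts of -4.46, -3.68, -3.84 and -2.11 against -4.93, -4.76, -5.27 and -4.86 and an interaction of 1.45 (SE 0.41, FDR = 0.0295, and 0.0608 without 3213). In both genes the IVP calves were less liver-high than the MOET calves. The 4 genes that were not called had values below 0, ACAA1 at -0.52 (FDR = 0.0577), ACAA2 at -0.16 (FDR = 0.453), ECHS1 at -0.12 (FDR = 0.671) and ECI2 at -0.04 (FDR = 0.869), and the median of the list was -0.04. PPARA of the muscle regulatory list, the receptor that switches on many genes of fat oxidation, had contrasts of -0.34, 0.26, 0.31 and 0.89 in IVP and -1.33, -1.0, -1.65 and -1.33 in MOET calves, with an interaction of 1.62 (SE 0.24, FDR = 0.00690, and 0.0265 without 3213).

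Lipid synthesis gave 2 of 7 genes called higher, among them ACACA, which makes malonyl-CoA, at 1.47 (SE 0.35, FDR = 0.0174, and 0.0433 without 3213). In glycolysis and gluconeogenesis 1 of 9 genes was called, ENO1, at -1.02 (SE 0.22, FDR = 0.0134, and 0.0444 without 3213). PCK1, which commits carbon to glucose, had -1.11 (FDR = 0.0503) and LDHA -0.69 (FDR = 0.203).

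The named genes of insulin and mTOR signalling moved mostly towards muscle in the IVP calves. Of 20 genes tested, 10 were called higher and 3 lower, 8 without calf 3213 and 12 without calf 5841, and the median was 0.77. The median contrast of the list was 0.74, 1.09, 0.79 and 1.25 in the IVP calves against 0.28, 0.52, 0.16 and 0.40 in the MOET calves. IRS1, which relays the signal of the insulin receptor, held 26.1, 22.9, 16.6 and 10.7 CPM in the livers of the IVP calves and 41.7, 37.4, 39.8 and 35.6 CPM in those of the MOET calves. In muscle it held 35.2, 37.0, 27.2 and 34.7 and 28.5, 21.6, 15.5 and 21.8 CPM, and 1 IVP muscle lay below the highest MOET muscle. Its contrasts of 0.43, 0.69, 0.71 and 1.69 and -0.55, -0.79, -1.35 and -0.71 differed in sign between the groups, with an interaction of 1.72 (SE 0.27, FDR = 0.00728, and 0.0259 without 3213).

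The insulin receptor INSR had contrasts of -0.79, -0.47, 0.55 and -0.29 in IVP and -1.47, -0.80, -1.78 and -1.42 in MOET calves and an interaction of 1.13 (SE 0.29, FDR = 0.0220, and 0.0581 without 3213). Downstream kinases changed likewise, PDPK1 with 1.72 (SE 0.26, FDR = 0.00688, and 0.0272 without 3213) and MTOR with 1.13 (SE 0.27, FDR = 0.0182, and 0.0454 without 3213). The 3 genes called lower were EIF4EBP1, which holds back cap-dependent translation until mTOR phosphorylates it, the S6 kinase RPS6KB2 and AKT1S1, a part of mTOR complex 1. EIF4EBP1 had contrasts of 1.84, 1.99, 1.92 and 0.56 against 3.39, 3.0, 2.43 and 3.02 and an interaction of -1.38 (SE 0.32, FDR = 0.0164, and 0.0451 without 3213), RPS6KB2 had -0.82 (FDR = 0.0154) and AKT1S1 -0.67 (FDR = 0.0466, and 0.105 without 3213).

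Of 19 genes of matrix proteins and integrins, 8 were called higher and none lower, 6 without calf 3213, with a median of 0.70. These genes were long, with a median span of 92.6 kb, and those of insulin and mTOR signalling had 68.7 kb. COL12A1, a collagen at the surface of fibrils, had contrasts of -1.24, -0.96, -0.91 and -0.63 in the IVP calves against -3.78, -2.44, -2.93 and -2.94 in the MOET calves and an interaction of 2.08 (SE 0.28, FDR = 0.00571, and 0.0228 without 3213). The integrin ITGAV changed the higher organ, at 0.15, 0.40, 0.36 and 1.34 against -1.58, -0.95, -1.47 and -1.22 with 1.89 (SE 0.29, FDR = 0.00690, and 0.0277 without 3213). ITGA1 reached 1.43 (SE 0.23, FDR = 0.00758) and ITGA3 1.06 (SE 0.18, FDR = 0.00869). The fibrillar collagens COL1A1 at -0.30 (FDR = 0.325), COL1A2 at 0.30 (FDR = 0.163) and COL3A1 at -0.11 (FDR = 0.725) were not called, and neither was any of the 4 tested markers of fibroblasts and stellate cells.

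Immediate early genes, which respond within minutes to hormones and stress, went both ways, with 3 of 18 called higher and 5 lower, 5 without calf 3213 and 11 without calf 5841. BTG2, an inhibitor of proliferation, reached 1.76 (SE 0.36, FDR = 0.0121, and 0.0390 without 3213) and FOSL2 1.49 (FDR = 0.0137), beside ATF3. GADD45A, induced by DNA damage, had -1.05 (SE 0.20, FDR = 0.0111, and 0.0387 without 3213) and IER3 -1.13 (SE 0.22, FDR = 0.0115, and 0.0395 without 3213), and FOS at -0.76 (FDR = 0.291) and JUN at 0.38 (FDR = 0.197) were not called. Among 7 clock genes 2 were called lower, BHLHE40 at -1.08 (SE 0.23, FDR = 0.0132, and 0.0420 without 3213) and NPAS2 at -1.14 (SE 0.30, FDR = 0.0240, and 0.0633 without 3213), while PER2 stood at 0.58 (FDR = 0.101).

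ATF6, a membrane-bound factor of the unfolded protein response, had contrasts of -0.86, -1.07, -1.05 and -0.06 in IVP and -2.80, -2.50, -2.39 and -2.47 in MOET calves and an interaction of 1.80 (SE 0.25, FDR = 0.00650, and 0.0259 without 3213). The chaperone HYOU1 was called at 0.87 (SE 0.26, FDR = 0.0377, and 0.0838 without 3213) although the contrasts of its groups overlapped, and the heat shock protein HSPB1 was called lower at -1.22 (SE 0.34, FDR = 0.0276, and 0.0700 without 3213). XBP1 at -0.11 and HSP90AB1 at -0.54 were not called, so 2 of 5 genes of this list rose in the contrast and 1 fell. Of 6 genes of the imprinted list, SLC38A4 was called higher and TSSC4 lower at -1.18 (SE 0.24, FDR = 0.0122, and 0.0401 without 3213), and PEG3 at 0.44 (FDR = 0.229), PEG10 at 0.67 (FDR = 0.0593) and MEST at -0.19 (FDR = 0.499) were not called.

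Genes restricted to 1 organ gave little to test, since the other organ held at most 3 counts in every library of a group. This was so for 6 of 10 plasma protein genes, 6 of 12 genes of cytochrome P450, bile acid and conjugation enzymes and 6 of 11 sarcomere genes. RBP4, which carries retinol in plasma, was called lower at -0.95 (SE 0.23, FDR = 0.0188, and 0.0684 without 3213), SULT1A1, a sulfotransferase, at -0.65 (SE 0.16, FDR = 0.0181, and 0.0653 without 3213) and CYP2D14 at -0.67 (SE 0.17, FDR = 0.0192, and 0.0673 without 3213). AASS, of lysine breakdown, was called higher at 1.49 (SE 0.30, FDR = 0.0117, and 0.0395 without 3213) and was the only one of 5 genes of amino acid breakdown and the urea cycle to be called.

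On the side of muscle, the calcium pump ATP2A2 and its inhibitor PLN moved together. ATP2A2, the pump of slow fibres, held 1198, 1306, 3298 and 2915 CPM in the muscles of the IVP calves and 1054, 727, 527 and 693 CPM in those of the MOET calves. In liver it held 26.6 ± 5.59 and 45.8 ± 2.15 CPM, and its contrasts of 5.12, 5.62, 7.07 and 7.10 and 4.46, 3.99, 3.59 and 3.94 did not overlap, with an interaction of 2.23 (SE 0.43, FDR = 0.0114, and 0.0372 without 3213). Of 5 genes of calcium handling these were the 2 called, both higher. PLN had contrasts of 5.27, 5.32, 6.74 and 6.47 and 3.77, 4.00, 3.67 and 3.67 and an interaction of 2.18 (SE 0.32, FDR = 0.00682, and 0.0259 without 3213). In both genes 5833 and 5841 lay above 3208 and 3209. Of 5 muscle regulatory genes FST was called lower and PPARA higher, and MEF2C at -0.47 (FDR = 0.191) was not called. MYOM1, of the M band of the sarcomere, was the only one of 11 sarcomere genes called, at 1.15 (SE 0.29, FDR = 0.0204, and 0.0565 without 3213). The slow myosin MYH7 held 10787 CPM in IVP against 3481 CPM in MOET muscles and was listed at 0 in the livers of both groups, so its contrast had no measured liver side.

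Markers of other cell types were named in part only, and their part in these results was not tested. Of the 4 named macrophage and Kupffer cell markers C1QA was called lower, at -1.09 (FDR = 0.0403, and 0.0798 without 3213), and all 4 had negative values. Their summed level was 1240 to 2155 CPM in IVP livers and 918 to 1155 CPM in MOET livers, against 24.9 to 68.5 and 35.0 to 48.4 CPM in muscle, and edgeR called none of the 4 without 3213, where 4 had an unadjusted p under 0.05, and none without 5841. The adipocyte marker PLIN4 was called higher, at 2.15 (FDR = 0.010), with 0.195 to 0.910 CPM in IVP livers and 1.51 to 2.87 CPM in MOET livers. In muscle it held 40.0 to 61.7 CPM in the IVP group and 29.9 to 41.9 CPM in the MOET group, so the difference between origins was larger in liver, at -1.67 against 0.44 on the log2 scale. The endothelial marker CDH5 was called higher, at 1.0 (FDR = 0.0106), and VWF at 0.66 and CLDN5 at -0.84 were not called.

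The contrast was sorted by its mean over both origins into liver-high genes (over 1 log2 unit towards liver), muscle-high genes (over 1 towards muscle) and shared genes. Of 4631 liver-high genes 776 were called, and 485 of these (62.5%) had a narrower contrast in the IVP calves. Of 3621 muscle-high genes 856 were called, and 543 (63.4%) were narrower. Without calf 3213 the narrower ones were 189 of 286 and 139 of 274 (50.7%), and with a limit of 2 log2 units they were 257 of 403 and 173 of 329 (52.6%). With both changes they were 93 of 146 and 43 of 118 (36.4%), so most called muscle-high genes were then wider. At the limit of 1 log2 unit, 58.2% of all liver-high genes tested had a positive interaction, called or not, which is narrower. Of all muscle-high genes tested, 44.2% had a positive one, which is wider. The 6985 shared genes held 1859 calls, 898 higher and 961 lower. The overall spread of the contrast did not differ detectably between the groups. The SD of the contrast across genes was 3.0 ± 0.0566 in IVP (n = 4) and 3.01 ± 0.0348 in MOET calves (n = 3), a difference of -0.0306 over all 8 calves with p = 0.457 in an exact two-sided permutation test, whose smallest possible p is 0.0286. Without calf 3213 the difference was -0.0154 (exact permutation p = 0.743, smallest possible 0.0571).

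Genes with more than 3 counts in at least 1 library of every group numbered 13700, of which 3436 were called. In 61.8% of the 13700, the mean levels of IVP and MOET calves differed in opposite directions in liver and in muscle. The same held for 3289 of the 3436 called genes (95.7%). Opposite directions enlarge the interaction by which these genes were called. The 95.7% and the opposite medians below therefore follow in large part from that choice. The IVP minus MOET difference was larger in liver for 2657 of the called genes (77.3%), against 64.8% of all. On the log2 scale, genes called higher had a median IVP minus MOET difference of -0.65 in liver against 0.38 in muscle. Genes called lower had 0.59 in liver against -0.27 in muscle. The contrast of IVP calf 5841 was the farthest from the MOET mean for 76.5% of the called genes and 55.7% of all, while that of 3208 was the farthest for 4.60% and 11.5%. Of the 92 genes named by rule, 90 were still called without 5841, 75 without 5932, 72 without 3213 and 64 without 3217.

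Short and long genes moved in opposite directions. The span of the gene from the RefSeq annotation of another assembly (ARS-UCD2.0) was found for 3759 of the 3776 genes with a symbol (99.5%). The median interaction rose from -0.72 in the quartile with the shortest genes, 0.412 to 9.58 kb, through -0.19 and 0.29 to 0.61 in the quartile with the longest, 77.4 to 2434 kb. In the shortest quartile 40 genes were called higher and 480 lower, and in the longest 383 higher and 54 lower. Across these genes, which are not independent replicates, interaction and span had a Spearman correlation of 0.50. Within single calves the contrast correlated with span at -0.15 to -0.10 in the MOET calves and -0.01 to 0.22 in the IVP calves, highest in 5841. The medians of the quartiles ran from -0.70 to 0.61 without calf 3213 and from -0.52 to 0.46 in the calves of the same dam and sire. The part of gene span in the results on ribosomal and proteasome genes, which are short, and on matrix and insulin signalling genes, which are longer, was not tested. RNA integrity was not analysed here.

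**Figure D5:**
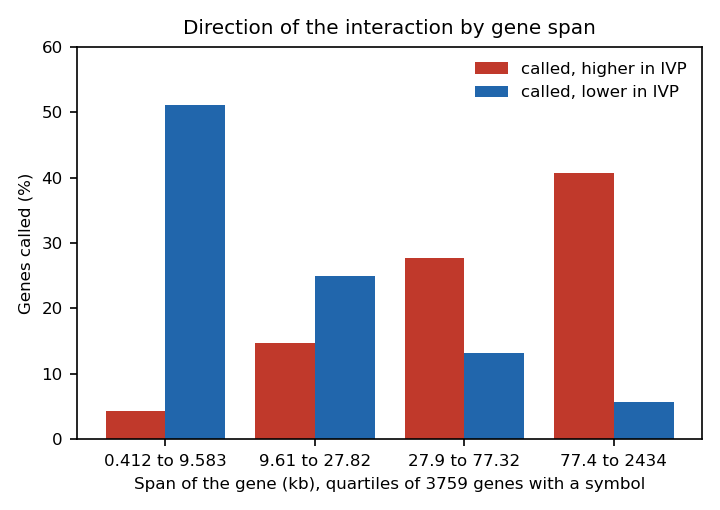
Share of genes (%) called with a higher or a lower contrast in IVP calves in 4 equal groups of 3759 genes by the span of the gene in kb. The share called lower falls from 51.1% to 5.74% and the share called higher rises from 4.26% to 40.7% from the shortest to the longest genes.

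Among calves 3208 and 3209 (IVP) and 3217 and 3218 (MOET), which had the same dam and sire, 273 of 15302 genes were called (1.78%), 131 higher and 142 lower, and 3275 had an unadjusted p under 0.05. Of the 273 genes, 260 (95.2%) had the same direction in the calves 5833, 5841 and 5932, against 73.0% of 15219 genes in both fits. These 3 calves had other sires, and 5932 another dam, while 5833 and 5841 had the dam of the first 4. Their median size was 1.3 in the first calves and 1.58 in the others. For TFRC the values were 2.25 and 3.65, for IRS1 1.23 and 2.56, for ATF3 2.44 and 2.93, and for PHGDH -1.72 and -5.26. The ribosomal proteins had medians of -0.64 and -1.63, with 59 of 59 below 0 in each. Of the 92 named genes 37 were called in the 4 calves of the same parents.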

How the data were processed

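RNA of the liver and semitendinosus muscle of 8 calves was sequenced by the authors in 16 non-stranded libraries of polyadenylated RNA. According to their methods, SOAPnuke served for read filtering, STAR (2.7) for alignment to bosTau9 and HTSeq for counting per Ensembl gene. The deposited values are estimated counts, since the authors removed the effect of age with sva before deposit, in a model not given in the sources used here. They were whole numbers for 27607 gene IDs, so rounding changed none, and the same tests as for counts were used. There were 0 other columns. Each calf was taken as a block, because both its organs come from 1 animal. The deviations of the organs of a calf from their group means correlated at -0.0910 to 0.178 across genes, above 0.1 in 4 of 8 calves.

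Genes were filtered with filterByExpr (minimum count 10, minimum total 15), scaled by TMM over 16 libraries and tested with the quasi-likelihood test of edgeR (4.0.16) for the organ-by-origin term, with 6 residual degrees of freedom and Benjamini-Hochberg adjustment at an FDR of 0.05. CPM uses the same scaling. P-values measure the spread between calves. Those over 16 libraries count calf 3213 as a replicate and may therefore understate that spread. Alternatives used limma (3.58.1), DESeq2 (1.42.0), other scalings, filters, age terms and subsets of calves, and left out each calf in turn. R was 4.3.3, Python 3.11.15, pandas 2.3.3, scipy 1.17.1 and matplotlib 3.10.9. On simulated counts for this test with a change of 1 log2 unit in 199 of 15081 genes, 76 (38.2%) were recovered. Of 80 calls, 5% were false. These shares describe simulated counts only. In the deposited counts, calf 3213 lay nearer to the mean of the other MOET calves than counting noise allows. Whether the share of false calls holds for the deposited counts was not tested.

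Symbols came from the study's supplementary tables for 4181 IDs and were matched to RefSeq. The named genes were the 12 with the largest interaction in each direction with a symbol, an FDR under 0.05, at least 5 CPM in a group and no overlap of the calves, up to 4 members with the smallest FDR of each of 23 gene lists, the 4 insulin targets IRS1, INSR, MTOR and EIF4EBP1, the EIF3 subunits as a group, and 2 IDs without a symbol in each direction. Other list members are named in the text after their values were seen. There were also 13 lists of cell type markers, of which erythroid cells had no tested marker and Schwann cells no named one. CFTR and SPP1 of cholangiocytes, S100A9 of neutrophils and MSTN of satellite cells were not called. Some list members are not reported here. The members and lists were chosen with earlier results of these data known. No sequence is shown because no sequence of these genes was at hand.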

Additional observations from a re-analysis of the deposited data

Results flagged for a closer look

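By a test of the interaction in all 16 libraries, the IVP minus MOET difference was unlike in muscle and liver for 3491 genes. Without calf 3213 this held for 1151 genes, and among the calves of the same dam and sire for 273. Each gene below is listed with its interaction on the log2 scale because it passed the test in all 16 libraries. The 12 named genes with the lowest fitted interaction were FGF21 (-7.26), PRSS2 (-6.88), REC8 (-4.02), PHGDH (-3.20), IFI27 (-2.74), PSPH (-2.74), CCDC42 (-2.56), NCF4 (-2.47), PTGES (-2.40), FST (-2.31), IFITM3 (-2.19) and PLA2G7 (-2.19). PRSS2 was near 0 in both organs of the MOET calves and FGF21 in muscle, so their values are no fold changes and show no move of PRSS2 towards an organ. REC8, CCDC42 and IFITM3 were near the limit of detection in muscle. Towards muscle the 12 largest were LOC100139916 (3.11), TFRC (2.85), PROX1 (2.83), ABCA1 (2.81), ATF3 (2.77), PODXL (2.71), AHR (2.60), KCTD12 (2.56), GPAM (2.52), AKAP6 (2.43), ZKSCAN1 (2.43) and SLC38A4 (2.41). Of these, LOC100139916 was near 0 in the muscles of the MOET calves and was higher in IVP calves in both organs. Without a symbol, ENSBTAG00000009836 (-6.88) and ENSBTAG00000003222 (-2.92) moved towards liver. ENSBTAG00000009836 was near 0 in the muscles of the IVP calves, and ENSBTAG00000003222 was highest by far in the muscle of MOET calf 5932. Towards muscle the IDs without a symbol were ENSBTAG00000049220 (3.22) and ENSBTAG00000014855 (2.82). For the list cytosolic ribosome they were RPL13A (-1.18), RPSA (-1.04) and RPL29 (-1.34).

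For the list translation initiation and elongation factors they were EIF3G (-1.05), EIF2S2 (-1.55), EIF3F (-0.88) and EIF1AX (-0.99). For the list mitochondrial ribosome they were MRPL41 (-1.64), MRPL54 (-1.04), MRPS24 (-0.90) and MRPL23 (-1.74). For the list respiratory chain and ATP synthase, nuclear they were NDUFS6 (-0.92), NDUFB7 (-1.13), NDUFC2 (-0.64) and NDUFB11 (-0.82). For the list TCA cycle they were DLD (0.80), PDHA1 (0.97), ACLY (0.95) and IDH3G (-0.47). For the list fatty acid oxidation they were ACADM (1.17) and EHHADH (1.45). For the list proteasome they were PSMB2 (-0.89), PSMB6 (-0.91), PSMB3 (-0.96) and PSMA4 (-1.12). For the list insulin and mTOR signalling they were PDPK1 (1.72) and IRS1 (1.72). For the list extracellular matrix and integrins they were COL12A1 (2.08), ITGAV (1.89), ITGA1 (1.43) and ITGA3 (1.06). For the list spliceosome they were SNRPE (-1.03), U2AF1 (-1.21), SNRNP70 (-1.14) and LSM6 (-0.99). For the list plasma proteins of hepatocytes it was RBP4 (-0.95). For the list amino acid breakdown and urea cycle it was AASS (1.49). For the list cytochrome P450, bile acid and conjugation enzymes they were SULT1A1 (-0.65) and CYP2D14 (-0.67). For the list cholesterol and fatty acid synthesis it was ACACA (1.47). For the list glycolysis and gluconeogenesis it was ENO1 (-1.02). For the list sarcomere, fast and slow it was MYOM1 (1.15). For the list calcium handling and excitation of muscle they were PLN (2.18) and ATP2A2 (2.23). For the list muscle regulatory factors and protein breakdown it was PPARA (1.62). For the list immediate early genes they were GADD45A (-1.05), IER3 (-1.13) and BTG2 (1.76). For the list circadian clock they were BHLHE40 (-1.08) and NPAS2 (-1.14). For the list unfolded protein response and heat shock they were ATF6 (1.80), HSPB1 (-1.22) and HYOU1 (0.87). For the list interferon-inducible genes they were IFI6 (-1.62) and ISG15 (-1.74). For the list imprinted genes it was TSSC4 (-1.18). Of the insulin targets, INSR (1.13), MTOR (1.13) and EIF4EBP1 (-1.38) were added by name.

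A single calf stood apart from the other 3 of its group in the organ contrast of 11 of 184 groups of 4 calves examined, where chance gives about 1 in 20. Calf 5841 stood apart in PHGDH (-6.44), PSMB3 (-0.17), LSM6 (0.48), ENO1 (-1.88), BTG2 (1.36), HSPB1 (0.56) and EIF4EBP1 (0.56). Calf 3208 stood apart in ENSBTAG00000049220 (-4.06) and IER3 (1.70). Calf 5833 stood apart in ACLY (-0.92). Calf 3218 stood apart in PSMB3 (1.31). The values in parentheses are log2 contrasts of that calf.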

How the results depend on the processing

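Without the replicate block 4050 genes were called, and 3521 with age as a covariate in place of the block. With the block, an age-by-organ term left 713 genes (437 higher, 276 lower), the calves of the same dam and sire 273 (131 and 142), and, both chosen after seeing the data, the calves 5833, 5841 and 5932 of other sires 156 (94 and 62) and the fit without block and without 3213 1878 (953 and 925). Leaving out each calf in turn gave 1019 to 4520 genes, 554 to 2192 higher and 465 to 2328 lower. Scaling by library totals gave 868 genes lower. RLE factors, TMM within each organ, 2 other filters, limma on the differences per calf and DESeq2 gave counts within 1.5 times the 3491. The age-by-organ term can hardly be told apart from calf 3213, which was 144 days old while the other calves were 98 to 104 days old. The cause of these changes was not tested.

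Of 736 values of the 92 named genes with a calf left out, 649 stayed called and 87 did not. Under the other settings 1011 of 1196 stayed called, 184 did not, and 1 changed direction, HYOU1, at -0.017 in the 3 calves of other sires. No median of the 13 lists with at least 10 tested genes changed sign in 156 values, and 8 moved by more than the SD between calves. These were the ribosome at -0.64, insulin and mTOR signalling at 0.47 and the spliceosome at -0.42 with the same dam and sire, the citrate cycle at 0.37, insulin and mTOR signalling at 1.0 and the spliceosome at -0.52 with library totals, and the spliceosome at -0.89 without 3208 and -0.55 without 5841. Low counts leave contrasts of genes of 1 organ undefined.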

Other observations

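Further genes changed the organ in which they were higher, and those named here were chosen after their values were seen. They are not the largest of that kind, since ANKRD52 (2.19), INAFM1 (-2.01), ANTKMT (-1.73) and PHIP (-1.71) had larger interactions than some of them. PDPR, a regulatory subunit of the phosphatase that activates pyruvate dehydrogenase, had a mean contrast of 1.39 ± 0.99 in IVP and -0.92 ± 0.28 in MOET calves (n = 4 and 3) and an interaction of 2.24 (SE 0.41, FDR = 0.010, and 0.0319 without 3213). HEG1, a receptor of endothelial junctions, went from -0.52 in MOET to 1.37 in IVP calves with 1.92 (SE 0.29, FDR = 0.00690, and 0.0272 without 3213), and the matrix protein ECM2 from -0.50 to 1.36 with 1.84 (SE 0.26, FDR = 0.00650, and 0.0239 without 3213).

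In the other direction, SARS1, which charges tRNA with serine, had a mean contrast of -0.94 ± 0.51 in IVP and 0.65 ± 0.91 in MOET calves and an interaction of -1.64 (SE 0.36, FDR = 0.0139, and 0.0429 without 3213). MIF, a cytokine that inhibits macrophage migration, had -0.96 ± 0.81 in IVP and 0.55 ± 0.35 in MOET calves and -1.52 (SE 0.34, FDR = 0.0146, and 0.0427 without 3213). DPM3, a subunit of the enzyme that makes dolichol phosphate mannose, had -0.65 ± 0.53 in IVP and 0.70 ± 0.26 in MOET calves and -1.38 (SE 0.25, FDR = 0.0105, and 0.0363 without 3213).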
